A study of Mus musculus with 6 samples.

Results

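The proteasome genes of the mouse were examined in RNA-seq of bone marrow-derived macrophages (BMDMs) grown together with ID8 cells. They were taken as all protein-coding rows of the expression table whose symbol was Psma to Psmg followed by a number, with or without further letters. This gave 50 genes of 54532 in the table, of which 22046 were protein-coding. The genes lay on 16 chromosomes. One of the 50, Psmc3ip, shares the naming pattern but encodes a meiotic recombination factor and not a proteasome subunit.

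The series compared 3 libraries per group. In the cisplatin group the ID8 cells, an ovarian cancer line from C57BL/6 mice, had been treated with 40 µM cisplatin before the co-culture, and in the PBS group with buffer alone. The macrophages of both groups, which the study also calls monocytes, came from the bone marrow of C57BL/6 mice aged 6 to 8 weeks, and no growth factor was named for their medium. How the macrophages were parted from the ID8 cells before RNA extraction was not given in the sources used here. The question was how drug-exposed tumour cells alter the macrophages next to them. Whether the replicates came from separate mice or cultures was not given in the sources used here, so the p-values measure only the spread between these libraries.

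The proteasome is the barrel-shaped protease that degrades ubiquitin-tagged proteins. Its 20S core is built of alpha and beta rings, and the beta rings carry the catalytic subunits. Regulatory caps bind to the core ends: the 19S particle unfolds ubiquitinated substrates with a ring of ATPases, and PA28 or PA200 activators open the core without ubiquitin recognition. In immune cells, and in most cells exposed to interferon gamma, the catalytic subunits β1, β2 and β5 (Psmb6, Psmb7 and Psmb5) can be replaced during assembly by β1i, β2i and β5i (Psmb9, Psmb10 and Psmb8), which yields the immunoproteasome and changes the peptides available to MHC class I molecules.

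Each library held 15776238 to 17924686 reads assigned to genes, as recovered from the deposited FPKM values, which count fragments relative to gene length and library size. The library size implied by these values was 103.7% to 104.1% of the recovered reads in the cisplatin libraries. In the PBS libraries it was 97.4% to 98.7%. The 50 genes together took 0.484% to 0.513% of these reads in every library. Libraries of the same group correlated with r from 0.984 to 0.989 across genes, and libraries of different groups with r from 0.872 to 0.877. All 12 macrophage markers were detected and were higher in the cisplatin group, with a summed level of 4453 to 4623 FPKM against 1778 to 1794. The 15 listed ID8 and mesothelial markers summed to 252 to 275 FPKM in the cisplatin group and 1337 to 1447 in the PBS group, and 10 of the 11 tested were lower. Lymphocyte markers (438 to 449 against 193 to 200 FPKM) and neutrophil markers (8155 to 8421 against 4581 to 4737 FPKM) were also present. The lymphocyte sum came mainly from B cell genes such as Cd79a (147 against 63.9 FPKM), while Cd3d, Cd3e and Cd3g were below 1 FPKM. Most of the neutrophil sum was S100a8 and S100a9, which the study lists as myeloid markers. Mpo was at 121 against 18.7 FPKM and Ly6g at 3.15 against 2.81. With the ID8 and B cell genes, the libraries labelled BMDM held RNA of other cells. No marker was at 0 in all libraries, but the ID8 and mesothelial markers Krt7, Muc16, Epcam and Igfbp5 were below 1 FPKM in each. The part of this cell mixture in the differences given here was not tested, and in such bulk libraries fewer cells of a type and less RNA per cell cannot be told apart.

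Of the 50 genes, 48 passed the expression filter (at least 1 FPKM in at least 3 of the 6 libraries). The other two, Psma8 and Psmb11, encode the testis and thymus forms of core subunits. Psma8 had 5, 3 and 1 reads in the PBS libraries and 12, 17 and 19 in the cisplatin libraries, and Psmb11 had 0 in the PBS libraries and 1, 6 and 0 in the cisplatin libraries. Among the 48 tested genes, 16 were higher and 15 lower in the cisplatin group at an adjusted p under 0.05 (limma), and 17 did not pass. Across all 13441 genes tested, 32.9% were higher and 35.1% lower, so the shares of the proteasome genes, 33.3% and 31.3%, were close to the background in both directions. The split was 20 higher and 12 lower under quantile normalisation, where 5349 of all genes were higher and 4006 lower. It was 22 and 11 with voom on recovered reads (5271 and 4315 of all genes). With scaling to total recovered reads it was 20 and 11 (5130 and 4201 of all genes). The groups did not overlap for 33 of the 48, against 72.4% of all genes.

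The changes were small. The median size of the log2 fold change was 0.21 for the proteasome genes and 0.39 for all genes. Of the 48 genes, 38 (79.2%) changed by less than 0.5 on the log2 scale, against 59.6% of all genes. Only Psmb9 also passed the second threshold, which asks for a change of 1 or more on the log2 scale in either direction. It was downregulated, as were 11.3% of all genes, and no proteasome gene was upregulated, against 4.67% of all genes. The median log2 fold change was 0.02 over the 48 genes and -0.0011 over all genes. When the libraries were scaled instead to their summed Y-linked transcripts, which the female-derived ID8 line lacks, the median of all genes moved to -0.83 and that of the proteasome genes to -0.942. Under that scaling 0 proteasome genes were higher and 47 lower, against 498 higher and 11096 lower of all 13441 genes. Every direction given here is therefore relative to the bulk of the transcriptome. Relative to the median of all genes, all 16 higher genes stayed above it and all 15 lower genes below it.

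**Figure D1:**
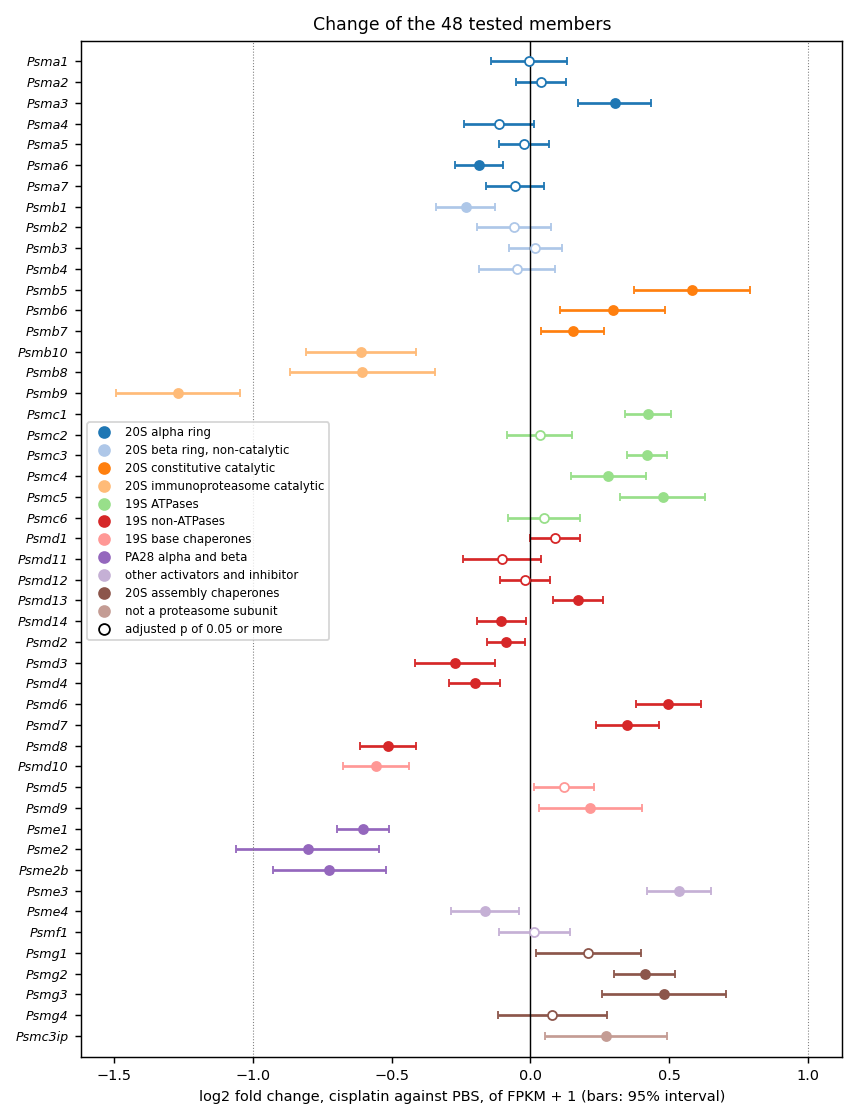
Log2 fold change (cisplatin against PBS, of FPKM + 1; x axis) of the 48 tested proteasome genes (y axis), coloured by role, with 95% intervals; open points did not pass an adjusted p of 0.05. The immunoproteasome catalytic and PA28 alpha and beta genes lie left of 0 and the constitutive catalytic genes right of it (left of it, but above the median of all genes, under Y-linked scaling); the dotted lines mark a log2 fold change of 1 in either direction.

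The paired catalytic subunits of the 20S core differed in their changes. All 3 immunoproteasome subunits were lower in the cisplatin group, with a median log2 fold change of -0.61. All 3 constitutive subunits were higher, with a median of 0.30, which became -0.68 under Y-linked scaling, still above the median of all genes. Immunosubunits are made as proproteins and enter new cores in place of their constitutive partners, so each pair was compared in turn.

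Psmb9 (β1i, also called LMP2; ENSMUSG00000096727) measured 20.5, 19.9 and 23.4 FPKM in the PBS libraries and 7.18, 8.50 and 9.05 FPKM in the cisplatin libraries. The highest cisplatin library was below the lowest PBS library. The mean fell from 21.3 ± 1.89 to 8.25 ± 0.961 FPKM (SD, n = 3 each), a ratio of 0.388. The log2 fold change was -1.27 (SE 0.0939) with a limma adjusted p of 2.47e-05. Its constitutive partner Psmb6 (β1, the caspase-like site) measured 48.5, 40.0 and 44.6 FPKM in the PBS libraries and 50.7, 57.4 and 55.7 in the cisplatin libraries. The groups did not overlap, although the gap between PBS 1 and cisplatin 1 was small. The log2 fold change of Psmb6 was 0.30 (SE 0.0789, limma adjusted p = 0.0132).

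Psmb8 (β5i, LMP7; ENSMUSG00000024338) measured 42.8, 35.4 and 40.6 FPKM in the PBS libraries and 21.8, 28.2 and 27.2 FPKM in the cisplatin libraries. The groups were separate, and the mean of the cisplatin group was 0.65 times that of the PBS group. This gave a log2 fold change of -0.61 (SE 0.11, limma adjusted p = 0.00229). Its partner Psmb5, the chymotrypsin-like site and the target of the drug bortezomib, moved the other way. Psmb5 measured 82.8, 68.4 and 82.5 FPKM in the PBS libraries and 108, 119 and 124 FPKM in the cisplatin libraries. The groups were separate, with a log2 fold change of 0.58 (SE 0.0875, limma adjusted p = 0.0009; -0.41 under Y-linked scaling). Of the 50-base stretches in the Psmb5 transcripts, 54.1% also occur in other annotated genes, 46.8% in the processed pseudogene Gm3375, so its level depends on how multi-mapped reads were treated.

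Psmb10 (β2i, MECL-1; ENSMUSG00000031897) measured 49.7, 44.8 and 52.0 FPKM in the PBS libraries and 29.1, 30.6 and 35.2 FPKM in the cisplatin libraries. The cisplatin values were again all below the PBS values, with a log2 fold change of -0.61 (SE 0.0831, limma adjusted p = 0.000541). Psmb7, the constitutive trypsin-like site, changed least of the 6 catalytic genes. It measured 21.6, 20.7 and 21.2 FPKM in the PBS libraries and 22.4, 24.9 and 23.6 FPKM in the cisplatin libraries. This rise was 0.15 on the log2 scale (SE 0.0474, limma adjusted p = 0.0252). This call was lost on leaving out cisplatin 2, cisplatin 3, PBS 2 or PBS 3 in turn, with limma adjusted p from 0.0606 to 0.0816. It passed in 12 of the 17 alternatives apart from Y-linked scaling.

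**Figure D2:**
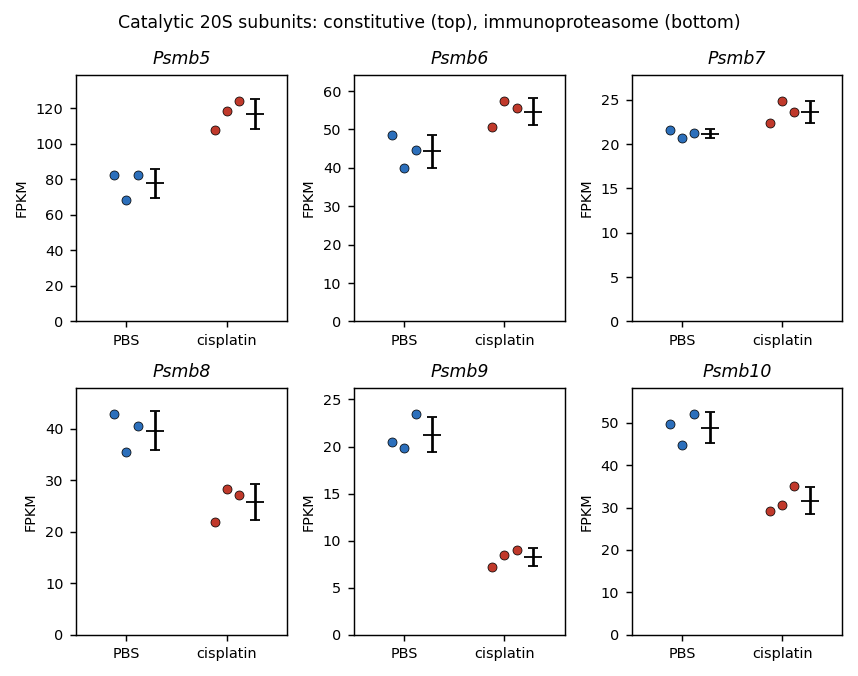
FPKM (y axis, from 0) of the 3 constitutive and 3 immunoproteasome catalytic subunits in each PBS and cisplatin library (points), with the mean and SD of 3 libraries beside them (bars). The immunosubunits Psmb8, Psmb9 and Psmb10 are lower in all 3 cisplatin libraries, and the constitutive Psmb5, Psmb6 and Psmb7 are higher (lower under Y-linked scaling); the 2 groups do not overlap in any panel.

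Expressed as a share of each pair, the immunosubunit transcripts fell at all 3 sites. Psmb9 made up 29.7%, 33.2% and 34.4% of the summed FPKM of Psmb9 and Psmb6 in the PBS libraries and 12.4%, 12.9% and 14.0% in the cisplatin libraries. The difference was -19.4 percentage points. Psmb8 made up 34.1%, 34.1% and 33.0% of Psmb8 plus Psmb5 in the PBS libraries and 16.8%, 19.2% and 18.0% in the cisplatin libraries, a difference of -15.7 points. Psmb10 was the major transcript of its pair in every library. Its share of Psmb10 plus Psmb7 was 69.7%, 68.4% and 71.0% in the PBS libraries and 56.5%, 55.2% and 59.8% in the cisplatin libraries, a difference of -12.5 points. For each share the exact two-sided permutation test gave p = 0.1, the smallest value that 3 libraries against 3 allow. A share within a library does not change with the scaling of the libraries, but it does depend on the gene lengths used. With the longest coding transcript as the length, the mean share of Psmb10 was 50.4% in the PBS and 37.1% in the cisplatin group, so that the order of the pair depends on that choice.

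**Figure D3:**
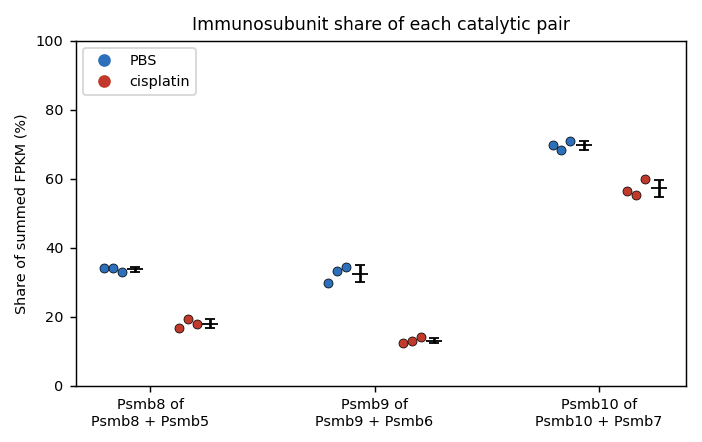
Share of the immunosubunit in the summed FPKM of each catalytic pair (y axis, percent) in every PBS and cisplatin library (points), with the mean and SD (bars, 3 libraries per group). In each pair all cisplatin libraries lie below all PBS libraries, by 12.5 to 19.4 percentage points on average.

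The PA28 alpha and beta genes moved with the immunosubunits. PA28 alpha and beta form a ring that caps the core and is induced by interferon gamma. Psme1 (PA28 alpha; ENSMUSG00000022216) measured 68.7, 65.0 and 70.3 FPKM in the PBS libraries and 43.5, 45.0 and 44.6 FPKM in the cisplatin libraries. The spread within each group was small beside the gap, and the log2 fold change was -0.60 (SE 0.0394, limma adjusted p = 1.35e-05). Psme2 (PA28 beta; ENSMUSG00000079197) measured 63.5, 62.2 and 70.2 FPKM in the PBS libraries and 31.0, 40.3 and 40.4 FPKM in the cisplatin libraries. The groups were separate, at a log2 fold change of -0.80 (SE 0.108, limma adjusted p = 0.000513). The Psme2b locus on chromosome 11 carries a near copy of Psme2, and 68.7% of its 50-base stretches occur in Psme2, so the reads of both genes cannot be cleanly divided. Psme2b had a log2 fold change of -0.73. All 6 immunosubunit and PA28 alpha and beta genes were therefore lower, with a median of -0.67, while 16 of the other 42 tested genes were higher and 9 lower, with a median of 0.04. The 6 calls held in all 17 alternatives run apart from Y-linked scaling, and under Y-linked scaling they lay at -1.35 to -0.74 relative to the median of all genes.

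Among the remaining activators Psme3 was higher, and Psme4 was lower by a call that most alternatives lost. Psme3, the nuclear PA28 gamma, measured 40.7, 43.7 and 43.4 FPKM in the PBS libraries and 65.3, 59.3 and 62.1 FPKM in the cisplatin libraries. The groups were separate, with a log2 fold change of 0.54 (SE 0.0484, limma adjusted p = 6.73e-05), or -0.44 under Y-linked scaling, which is 0.39 above the median of all genes. Psme4 (PA200), an activator known from DNA repair and spermatogenesis, measured 22.8, 24.3 and 23.2 FPKM in the PBS libraries and 22.2, 20.3 and 19.98 FPKM in the cisplatin libraries. The cisplatin values lay just below the PBS values. Its log2 fold change was -0.16 (limma adjusted p = 0.0268), a call lost on leaving out cisplatin 2, cisplatin 3, PBS 2 or PBS 3, with adjusted p from 0.0563 to 0.0902. It passed in 8 of the 17 alternatives apart from Y-linked scaling, with adjusted p up to 0.19. Psmf1 (PI31), a core-binding protein described as an inhibitor in vitro, measured 4.08, 4.01 and 3.82 FPKM in the PBS libraries and 3.998, 3.999 and 4.06 FPKM in the cisplatin libraries. These ranges overlapped, and the 95% interval of its log2 fold change ran from -0.11 to 0.14.

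**Figure D4:**
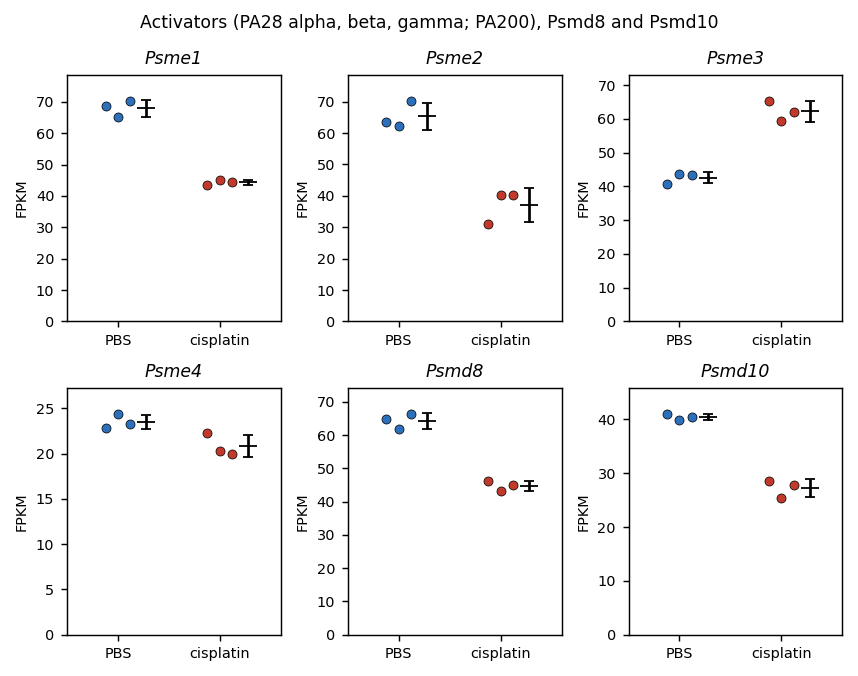
FPKM (y axis, from 0) of the activators Psme1, Psme2, Psme3 and Psme4 and of the 19S genes Psmd8 and Psmd10 in each PBS and cisplatin library (points), with the mean and SD of 3 libraries (bars). Psme3 is higher in the cisplatin group (lower under Y-linked scaling) and the other 5 genes are lower; the shift of Psme4 is the smallest.

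Of these 6 lower genes, 4 lie in 2 chromosomal neighbourhoods, and Psmb10 on chromosome 8 and Psme2b on chromosome 11 lie apart. Psmb9 and Psmb8 lie in the MHC region of chromosome 17 with Tap1 and Tap2, the subunits of the peptide transporter that feeds MHC class I molecules. In mm10 the order is Psmb9 (34181988 to 34187764, minus strand), Tap1, Psmb8 (34197721 to 34201454, plus strand) and Tap2, within 34334 bases. The log2 fold changes of these genes, in that order, were -1.27, -1.60, -0.61 and -1.20. The same stretch holds the protein-coding Gm15821, which overlaps Tap2 on the opposite strand and was lower at -1.44 (limma adjusted p = 0.00103). It also holds the antisense gene Gm20496, which overlaps Psmb8 and was not tested. The annotated Psmb9 and Tap1 genes overlap on opposite strands, and since the strand setting of the counting was not given in the sources used here, reads in the overlap cannot be assigned to either. The second neighbourhood is on chromosome 14, where Psme1 (55578123 to 55581529), Emc9, Psme2 (55587441 to 55591113), Rnf31 and Irf9 lie within 31908 bases. All 5 genes there were lower, with log2 fold changes of -0.60, -0.70, -0.80, -0.67 and -0.24. Emc9 overlaps Psme1 on the opposite strand.

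Promoter windows of 250 bases before to 50 bases after the start site were taken from RefSeq on GRCm38.p6, and 42 of the 50 genes had one. Those of the 3 immunosubunits, of Psme1 and of Psmb5 are shown because these genes moved in opposite directions. Both strands were searched for 2 copies of GAAA with 2 bases between them, the core of the interferon-stimulated response element, for TTCNNNGAA, the core of the gamma-activated site, and for TGACNNNGC, the core of the antioxidant response element. Capitals mark a match, and each sequence reads 5′ to 3′ on the strand of its gene.
Psmb9 (chr17:34187281-34187580, minus strand): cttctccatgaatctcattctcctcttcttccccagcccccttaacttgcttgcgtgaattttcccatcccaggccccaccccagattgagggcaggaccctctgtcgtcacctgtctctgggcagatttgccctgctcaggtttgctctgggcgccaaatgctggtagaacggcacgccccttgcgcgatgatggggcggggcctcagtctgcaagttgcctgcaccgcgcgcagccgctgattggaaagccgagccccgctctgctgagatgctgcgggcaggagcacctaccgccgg
Psmb8 (chr17:34197945-34198244, plus strand): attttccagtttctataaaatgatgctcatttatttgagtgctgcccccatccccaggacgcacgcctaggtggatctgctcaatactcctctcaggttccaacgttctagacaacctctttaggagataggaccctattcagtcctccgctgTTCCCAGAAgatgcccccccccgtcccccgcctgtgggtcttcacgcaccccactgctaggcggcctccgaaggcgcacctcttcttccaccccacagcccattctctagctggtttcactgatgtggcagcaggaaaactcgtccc
Psmb10 (chr8:105938343-105938642, minus strand): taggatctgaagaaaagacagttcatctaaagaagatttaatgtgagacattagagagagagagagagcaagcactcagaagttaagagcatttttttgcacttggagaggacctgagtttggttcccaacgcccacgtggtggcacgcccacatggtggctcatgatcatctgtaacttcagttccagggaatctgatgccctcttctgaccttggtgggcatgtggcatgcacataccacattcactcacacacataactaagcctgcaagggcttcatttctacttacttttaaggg
Psme1 (chr14:55578244-55578543, plus strand): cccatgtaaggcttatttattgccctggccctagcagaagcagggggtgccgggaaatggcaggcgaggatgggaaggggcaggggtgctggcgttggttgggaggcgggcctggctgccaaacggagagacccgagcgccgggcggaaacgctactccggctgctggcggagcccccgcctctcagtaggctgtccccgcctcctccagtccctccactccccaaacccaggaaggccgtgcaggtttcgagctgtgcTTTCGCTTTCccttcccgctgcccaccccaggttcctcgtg
Psmb5 (chr14:54617946-54618245, minus strand): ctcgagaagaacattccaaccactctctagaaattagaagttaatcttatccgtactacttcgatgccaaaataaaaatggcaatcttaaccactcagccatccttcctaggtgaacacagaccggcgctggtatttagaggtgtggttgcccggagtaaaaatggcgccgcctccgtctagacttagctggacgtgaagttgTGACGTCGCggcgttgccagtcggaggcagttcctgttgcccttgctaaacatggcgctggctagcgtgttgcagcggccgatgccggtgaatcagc

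The Psmb9 window spans the start sites of 2 divergent genes. The start sites of Psmb9 and Tap1 are 226 bases apart, and their windows share 275 bases. The window of Psmb8 held one gamma-activated site core, 97 to 89 bases before the start site, and that of Psme1 held one interferon-stimulated response element core, 9 to 18 bases after it. The windows of Psmb9, Psmb10 and Psme2 held none of the 3 motifs. The window of Psmb5 held one antioxidant response element core beginning 47 bases before the start site, and that of Psmb6 another beginning 9 bases before it. The other windows with this core were those of Psmd9, which was higher, Psme4, which was lower, and Psmc6 and Psmd12, which did not pass. Over all 42 genes with a window, 5 held the interferon-stimulated core, 3 the gamma-activated core and 6 the antioxidant core. Of all 32851 RefSeq promoter windows, 3.44%, 8.30% and 12.4% held these motifs. The 5 genes with the interferon-stimulated core were Psmb3, Psmd4, Psmd9, Psme1 and Psmg4, of which 2 were lower, 1 was higher and 2 did not pass the test. A match describes letters and not a bound site.

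Most structural genes of the core moved little relative to the bulk of the transcriptome (all 11 were lower under Y-linked scaling, at -1.20 to -0.65). Of the 7 alpha ring genes 1 was higher, 1 was lower and 5 did not pass, and of the 4 non-catalytic beta ring genes 1 was lower and 3 did not pass. Psma3 measured 18.1, 19.9 and 19.97 FPKM in the PBS libraries and 24.1, 25.1 and 22.9 FPKM in the cisplatin libraries, a log2 fold change of 0.30 (limma adjusted p = 0.00224; -0.65 under Y-linked scaling). The groups did not overlap, and 15.4% of its 50-base stretches are shared with the pseudogene Gm13835, itself measured at 53.5 FPKM. Psma6, the most abundant core gene, measured 148, 140 and 147 FPKM in the PBS libraries and 131, 127 and 125 FPKM in the cisplatin libraries. This was a separate but small difference of -0.18 (limma adjusted p = 0.00322). The call was lost with voom on recovered reads (adjusted p = 0.0601) and with scaling to total recovered reads (adjusted p = 0.0518), where the log2 fold change was -0.10 in both.

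Among the non-catalytic beta subunits, Psmb1 measured 33.6, 32.8 and 35.8 FPKM in the PBS libraries and 29.7, 28.2 and 28.6 FPKM in the cisplatin libraries. The groups were separate, with a log2 fold change of -0.23 (limma adjusted p = 0.00295). Psmb3 measured 37.7, 36.5 and 35.4 FPKM in the PBS libraries and 38.3, 36.1 and 36.5 FPKM in the cisplatin libraries, and the groups overlapped. The 95% interval of its log2 fold change ran from -0.08 to 0.12. The 14 constitutive core genes are present in equal number in the assembled particle, but their mean transcript levels per length spanned 6.29 times, from 21.7 FPKM for Psma3 to 136 FPKM for Psma6. With the longest coding transcript as the length the same genes were the extremes, and the span was 5.45 times. The median over the 14 genes was 45.4 to 48.6 FPKM in the PBS libraries and 48.8 to 51.5 FPKM in the cisplatin libraries.

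The 19S particle was described by its ATPases and its non-ATPases. The 6 ATPases (Rpt subunits) drive unfolding of the substrate, and 4 of them, Psmc1, Psmc3, Psmc4 and Psmc5, were higher, with a median over the 6 of 0.35 (-0.63 under Y-linked scaling). None was lower in the authors' scaling. Psmc5 measured 59.6, 55.5 and 60.6 FPKM in the PBS libraries and 74.8, 84.9 and 86.4 FPKM in the cisplatin libraries, with a log2 fold change of 0.48 (SE 0.064, limma adjusted p = 0.000513). Psmc2 measured 27.6, 25.3 and 25.6 FPKM in the PBS libraries and 25.8, 28.03 and 26.5 FPKM in the cisplatin libraries, and its groups overlapped. Psmc1, Psmc3 and Psmc4 had log2 fold changes of 0.42, 0.42 and 0.28, and Psmc6 one of 0.05 that did not pass.

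The 11 non-ATPases (Rpn subunits) include the lid, the base scaffolds Psmd1 and Psmd2 and a ubiquitin receptor, and 3 were higher, 5 lower and 3 did not pass. Psmd6 (Rpn7), a lid scaffold, measured 22.3, 22.5 and 21.8 FPKM in the PBS libraries and 34.0, 30.4 and 31.1 FPKM in the cisplatin libraries. It rose by 0.50 on the log2 scale (SE 0.0494, limma adjusted p = 0.00011; -0.46 under Y-linked scaling). Psmd8 (Rpn12), which joins the lid last in assembly, moved the other way. It measured 64.7, 61.7 and 66.2 FPKM in the PBS libraries and 46.1, 43.1 and 44.9 FPKM in the cisplatin libraries, a log2 fold change of -0.51 (SE 0.0421, limma adjusted p = 4.17e-05). Psmd7 (0.35) and Psmd13 (0.17) were the other higher genes. Psmd3 (-0.27), the ubiquitin receptor Psmd4 (-0.20, lost under quantile normalisation with a limma adjusted p of 0.0623), the deubiquitinase Psmd14 (-0.11) and the scaffold Psmd2 (-0.09) were lower. The calls of Psmd14 and Psmd2 passed in 5 and 6 of the 17 alternatives apart from Y-linked scaling. Both calls were lost on leaving out any one library other than cisplatin 1, with limma adjusted p from 0.0701 to 0.133 for Psmd14 and from 0.0622 to 0.11 for Psmd2.

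Psmd5, Psmd9 and Psmd10 share the naming of the lid genes but encode chaperones that assemble the ATPase ring. Psmd10 (gankyrin, X-linked) measured 41.0, 39.9 and 40.5 FPKM in the PBS libraries and 28.5, 25.3 and 27.9 FPKM in the cisplatin libraries, with no overlap. Its log2 fold change was -0.56 (SE 0.0499, limma adjusted p = 6.58e-05). Psmd9 measured 2.72, 2.36 and 2.78 FPKM in the PBS libraries and 3.18, 3.41 and 3.02 FPKM in the cisplatin libraries. It was called higher at 0.22 (limma adjusted p = 0.042; -0.53 under Y-linked scaling), and the call was lost on leaving out any one library, with adjusted p from 0.0512 to 0.13. It passed in 8 of the 16 alternatives that tested it, apart from Y-linked scaling. Psmd5 was at 0.12 and did not pass (limma adjusted p = 0.0509), although its groups did not overlap.

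The chaperones Psmg1 to Psmg4 help to build the alpha ring, and 2 of the 4 were higher, with a median of 0.31 (-0.63 under Y-linked scaling). Psmg3 was the least abundant tested gene, with 108 reads per library on average. It measured 1.52, 1.78 and 1.85 FPKM in the PBS libraries and 2.62, 2.59 and 3.18 FPKM in the cisplatin libraries, a ratio of 1.63 and a log2 fold change of 0.48 (limma adjusted p = 0.00326). Psmg2 was also higher, at 0.41 (limma adjusted p = 0.000198), and Psmg1 missed the threshold at 0.21 (limma adjusted p = 0.0521). Psmg4 measured 17.7, 15.3 and 17.2 FPKM in the PBS libraries and 15.9, 18.2 and 19.1 FPKM in the cisplatin libraries, with overlap between the groups. Psmc3ip, the meiotic factor, was low throughout, at 3.54, 3.28 and 3.16 FPKM in the PBS libraries and 3.62, 4.69 and 4.43 FPKM in the cisplatin libraries. Its log2 fold change of 0.27 (limma adjusted p = 0.0337) lost its call on leaving out cisplatin 2, cisplatin 3, PBS 2 or PBS 3, with adjusted p from 0.0793 to 0.106. The gene overlaps Mlx on the opposite strand.

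**Figure D5:**
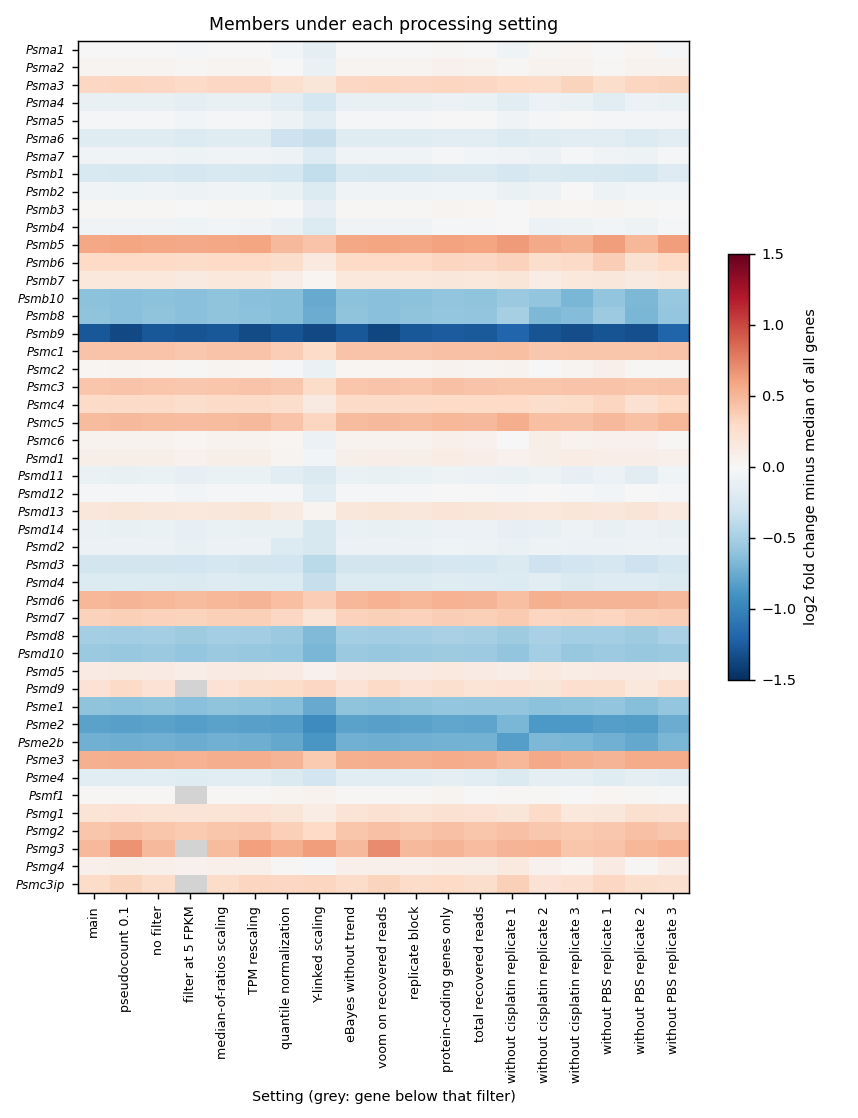
Log2 fold change minus the median of all genes (colour, red higher and blue lower in the cisplatin group) of each tested proteasome gene (rows) under the fit described and 18 alternatives (columns); grey marks a gene below that filter. Relative to the median of all genes, Psmb8, Psmb9, Psmb10, Psme1, Psme2 and Psme2b are blue and Psmb5, Psme3, Psmc5 and Psmd6 red in every column, including Y-linked scaling.

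Beyond the subunits, 28 other genes of the ubiquitin-proteasome pathway were listed, of which 27 were tested, 9 were higher and 9 lower, with a median of -0.02. These shares, 33.3% each, were close to the 32.9% higher and 35.1% lower of all genes. Pomp, the assembly factor that completes new cores and is needed for the immunoproteasome, had a log2 fold change of 0.14 (limma adjusted p = 0.0594). Nfe2l1, the transcription factor that raises proteasome genes when the proteasome is impaired, was lower, at 66.9, 66.0 and 70.6 FPKM in the PBS libraries and 52.9, 56.0 and 57.2 FPKM in the cisplatin libraries (-0.29, limma adjusted p = 0.000982). The 3 furthest changes were in Ecpas, an adaptor of the 26S particle (-1.42), in the substrate shuttle Rad23b (-1.42) and in Rps27a, which encodes ubiquitin fused to a ribosomal protein (1.19). Rad23b fell from 146 to 54.2 FPKM and Ecpas from 63.1 to 22.9 FPKM, both with no overlap between the groups. These falls were larger than that of any proteasome subunit.

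A list of 13 genes covered loading of MHC class I with the peptides that proteasomes make, and included the transcription factors Irf1 and Nlrc5. Of these, 10 (76.9%) were lower and 2 (15.4%) higher, with a median of -0.56. Of all genes, 35.1% were lower and 32.9% higher. Tap1 measured 60.2, 56.9 and 61.7 FPKM in the PBS libraries and 18.4, 19.02 and 19.6 FPKM in the cisplatin libraries. Its log2 fold change was -1.60 (SE 0.0446, limma adjusted p = 2.72e-07), and that of Tap2 was -1.20 (limma adjusted p = 3.43e-05). Irf1 and Nlrc5, both known to drive class I and immunoproteasome genes, are already counted among the 10 lower genes. Irf1 fell from 56.0 to 22.3 FPKM (-1.29, limma adjusted p = 2.87e-07) and Nlrc5 from 16.5 to 10.9 FPKM (-0.56, limma adjusted p = 7.48e-05). The groups did not overlap for any of these 4 genes, nor for 72.4% of all genes.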

How the data were processed

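Poly-A RNA of 6 co-culture libraries (3 per group) was sequenced at Novogene. The authors deposited FPKM values per gene, computed from reads counted on mm10 gene models. The labels name fastp, HISAT2 2.0.5 and featureCounts 1.5.0-p3, whereas the study's methods name LifeScope for alignment and counting, and which applies was not settled. FPKM times gene length gave whole reads (within 0.02, checked below 200 reads) for 100% of values in each library. Genes with at least 1 FPKM in at least 3 libraries were tested on log2(FPKM + 1) with limma 3.58.1 in R 4.3.3 (trended moderation, Benjamini-Hochberg adjustment over 13441 genes). A fold change on this scale understates the change of low genes. Upregulated or downregulated means that both hold: adjusted p under 0.05, and a change of 1 or more on the log2 scale. The catalytic shares were compared with an exact permutation test. The genes, roles and lists were chosen with earlier results of these data known. Values in every library were given for the 6 catalytic genes, the activators other than Psme2b, the inhibitor and, in each role, the genes with the largest and smallest log2 fold change. Roles follow textbook assignment. Alternatives changed the pseudocount, filter, scaling, model and libraries.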

Additional observations from a re-analysis of the deposited data

How the results depend on the processing

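With the libraries scaled to Y-linked transcripts, 0 proteasome genes were higher, 47 were lower and 21 were downregulated at both thresholds. Of all 13441 genes, 498 were higher, 11096 lower and 5181 downregulated under that scaling. The proteasome median was -0.942, the other pathway list had 0 higher and 24 lower, and the MHC class I list had 0 higher. All 48 tested genes had negative log2 fold changes under that scaling; among the genes given by library and Pomp, those that turned from positive were Psma3 -0.65, Psmb3 -0.95, Psmb5 -0.41, Psmb6 -0.68, Psmb7 -0.80, Psmc2 -0.93, Psmc3ip -0.51, Psmc5 -0.51, Psmd6 -0.46, Psmd9 -0.53, Psme3 -0.44, Psmf1 -0.78, Psmg3 -0.20, Psmg4 -0.86 and Pomp -0.80, and role medians were -0.68 for constitutive catalytic subunits, -0.63 for ATPases, -0.77 for 19S base chaperones and -0.63 for 20S assembly chaperones. The median of all genes was -0.83 there, and relative to it Psmb3 (-0.12), Psmc2 (-0.10) and Psmg4 (-0.03), none past the threshold before, were still negative. The proteasome median was 0.0953 under quantile normalisation, 0.104 under voom on recovered reads and 0.0935 with total recovered reads, an alternative chosen after seeing the data, as all genes moved to 0.10, 0.09 and 0.07. With the filter at 5 FPKM the median of the 19S base chaperones was -0.22, since Psmd9 dropped out.

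The share of Psmb8 changed by -20.7 points over recovered reads and by -19.1 with the longest coding transcript length, also chosen after seeing the data, and that of Psmb9 by -25.7 points over recovered reads, since the lengths weigh the pair differently. Leaving out 1 library in turn gave 13 to 15 higher and 12 to 16 lower proteasome genes, and log2 fold changes from -0.0074 to 0.040 for Psmb3 and from -0.0067 to 0.030 for Psmf1. It brought Psma4 past the threshold (limma adjusted p = 0.0449 without cisplatin 1 and 0.0367 without PBS 1), and likewise Psmd11 (0.0275 without PBS 2), Psmd5 (0.0446 without cisplatin 2) and Psmg1 (0.00954 without cisplatin 2). Over all alternatives other than Y-linked scaling, 8 of the 17 genes not past the threshold passed in none, while Psmg1 passed in 7, Psmd5 in 6, Psmd1 in 4, Psma2 and Psma4 in 2 each, and Psmc2, Psmc6, Psmd11 and Psmf1 in 1 each. Of the 16 higher genes 13, and of the 15 lower genes 10, passed in all 17 alternatives other than Y-linked scaling in which they were tested. Deviations of libraries with the same replicate number correlated at -0.10, -0.086 and -0.024, so no effect shared by replicate number was seen. Such values cannot tell whether the libraries were prepared in pairs. With the replicate block 13 proteasome genes were higher and 12 lower, against 4146 and 4485 of all 13441 genes. Depth limits the low genes most: Psmg3 had 108 reads per library on average.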
